A study of Mus musculus with 9 samples.

Results

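Polycomb complexes are assemblies of chromatin proteins that keep developmental genes silent, and this account follows the introns of 10 genes that encode them: Eed, Ezh2, Suz12, Rbbp4, Mtf2, Jarid2, Phf19, Phc1, Rnf2 and Ring1. The members are all introns that carry one of these gene names in the authors' deposited table, which gave 69 introns of 9 genes out of 22228 introns of 7016 genes. Phf19, which encodes a Polycomb-like partner of the complex, has no row of its own. The introns were measured in polyadenylated RNA of v6.5 cells, a single mouse embryonic stem cell line grown on gelatin with ESGRO. KH-CB19, which inhibits Clk kinases, was given in DMSO, controls had the same volume of DMSO alone, and cells were harvested after 2 h (KH-CB19 at 2 h, DMSO at 2 h) or at once (KH-CB19 at 0 h, DMSO at 0 h). Each of these 4 groups had 2 libraries, which the labels call biological replicates, and an untreated library was not analysed here. The values are the authors' means over the 2 libraries of a group, so no spread between libraries stands beside them.

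Polycomb repressive complex 2 (PRC2) methylates histone H3. Ezh2 is its methyltransferase, Eed binds the methylated histone and stimulates the enzyme, Suz12 is the scaffold, and Rbbp4 binds histones and also serves in other chromatin complexes. Mtf2, Phf19 and Jarid2 are accessory proteins that help bring PRC2 to its sites. Polycomb repressive complex 1 (PRC1) ubiquitinates histone H2A through the ligases Rnf2 and Ring1, and Phc1 is a polyhomeotic subunit whose SAM domain lets complexes join into chains. In embryonic stem cells both complexes hold lineage genes silent. A detained intron, the term of the series, is one that stays in polyadenylated RNA and is spliced late. Clk kinases phosphorylate SR proteins, which take part in splicing.

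Of the 69 introns, 14 (20.3%) were classed as detained by the authors' deposited table, where the class covered 15.5% of all introns. They lay in 7 genes: 3 in Mtf2, 2 each in Eed, Ezh2, Jarid2, Phc1 and Rbbp4, and 1 in Suz12. The 3 introns of Rnf2 and the 2 of Ring1 were not classed as detained. By length, 63 of the 69 introns matched a single intron of the same gene in GENCODE M21, and so did 11 of the 14 detained ones, 9 of them between coding exons. The detained intron of Mtf2 numbered 9 matched a transcript with no coding part (Mtf2-205), and intron 2 of Jarid2 lay in the 5′ UTR of Jarid2-204. Intron 8 of Mtf2 and introns 2 and 20 of Phc1 were not matched.

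The sequences below show where 3 of the 5 introns that changed at 2 h interrupt the coding sequence. Each line is an exon junction in the spliced GENCODE M21 transcript, 5′ to 3′, with the 30 bases before the intron in lower case and the 30 bases after it in capitals.
Eed intron 6: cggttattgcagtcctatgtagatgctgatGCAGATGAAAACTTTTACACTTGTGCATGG
Mtf2 intron 22: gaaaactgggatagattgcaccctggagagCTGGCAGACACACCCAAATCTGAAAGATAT
Rbbp4 intron 4: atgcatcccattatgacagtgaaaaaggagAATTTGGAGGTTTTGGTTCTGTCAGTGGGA
Intron 6 of Eed (chr7:97118942-97120049 on mm9, minus strand) was intron 4 of the 11 introns of Eed-201 and lay after codon 142. Intron 22 of Mtf2 (chr5:108523268-108528137, plus strand) was intron 9 of the 14 introns of Mtf2-201 and lay after codon 307. Intron 4 of Rbbp4 (chr4:129000114-129005831, minus strand) was intron 3 of the 11 introns of Rbbp4-201 and split codon 104. The other changed introns were intron 9 of Mtf2 (chr5:108502474-108509843, plus strand) and intron 20 of Phc1 (chr6:122272096-122272342, minus strand).

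The starts or ends of 5 detained introns between coding exons are shown. They were read from GENCODE transcripts with an exon over that end, which need not cover the whole intron. They give the splice sites of the intron that fell (intron 4 of Rbbp4) and of 4 that did not pass at 2 h. The lines give the first or the last 30 bases of the intron, with its outermost 2 bases in capitals.
Rbbp4 intron 4, start: GTaggactcttccgggatggaagaagtaat
Ezh2 intron 17, start: GTaagtatttgttgctttggtgcaattgca
Jarid2 intron 23, start: GTgagtactcacccccagcagcaggtacag
Ezh2 intron 17, end: atggtggtgatgatacatttatccctaaAG
Ezh2 intron 19, end: tcagttctaatgtgactgcttactctctAG
Jarid2 intron 23, end: caaatgtctcttgtctttccaccaccccAG
Eed intron 14, end: ctaattatgtgtctcttatttctcttttAG
All 3 starts opened with GT and all 4 ends closed with AG. Of the 28 bases before the final AG, 22 were pyrimidines in intron 14 of Eed, 21 in intron 23 of Jarid2, 19 in intron 19 of Ezh2 and 14 in intron 17 of Ezh2. GENCODE M21 has whole transcripts that keep intron 17 of Ezh2 (Ezh2-207) and intron 23 of Jarid2 (Jarid2-216), which were 40.2% and 48.5% G or C. Read on in the frame of the exon before it, the intron held its first stop codon after 9 codons in intron 4 of Rbbp4 (TAA), after 14 codons in intron 17 of Ezh2 (TAG) and after 1 codon in intron 23 of Jarid2 (TGA).

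The first question was how many reads these introns held beside the authors' expected counts. The sources used here do not say how those were made. Eed, Rbbp4, Mtf2, Jarid2 and Phc1 had introns above and introns below expectation in both groups, and 28 of 60 introns in KH-CB19 and 34 of 69 in DMSO passed neither way. In KH-CB19 at 0 h, 15 of the 60 introns with a value were above expectation at adjusted p below 0.05 per the authors' deposited table (27.6% of all introns were) and 17 were below (8.93% of all introns were). In DMSO at 0 h, 15 of 69 were above (28.2% of all introns) and 20 below (10.9% of all introns) by the authors' deposited table. The median log2 ratio of observed to expected reads over the members was 0.04 in KH-CB19 and −0.23 in DMSO at 0 h, against 0.60 and 0.53 over all introns. The members' medians cover 60 introns in KH-CB19 and 69 in DMSO, so their difference in sign is not a difference over the same introns. All members of the table had at least 10.5 observed reads, so introns with fewer reads do not enter these counts.

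**Figure D1:**
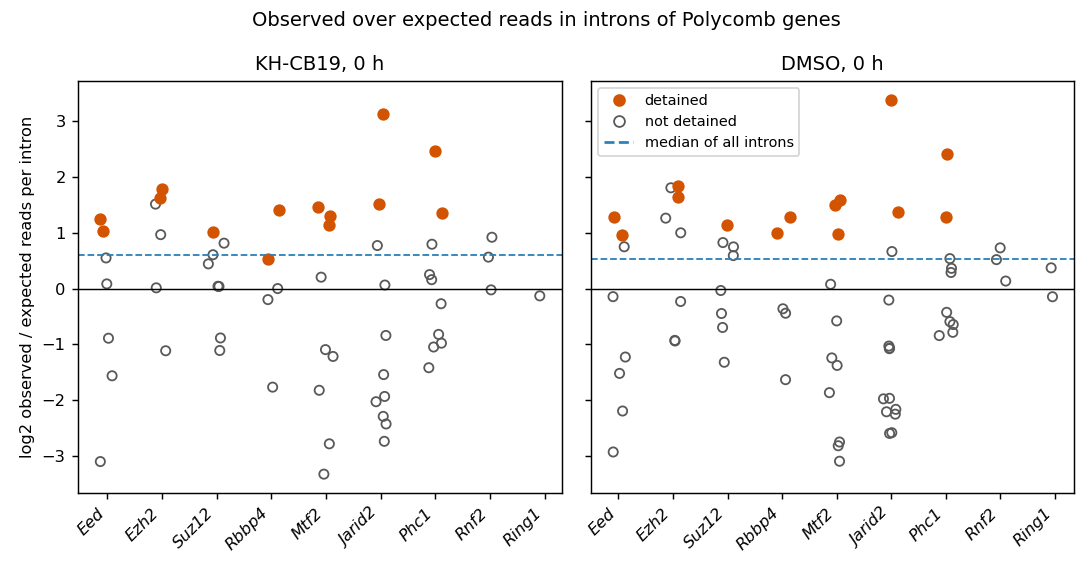
Log2 ratio of observed to expected reads at 0 h for each intron (points) of 9 Polycomb genes, in KH-CB19 (left) and DMSO (right), from the authors' group means. Filled points are detained introns, open points are not, and the dashed line is the median of all introns (0.60 in KH-CB19, 0.53 in DMSO). Detained introns lie above most others of their gene, and open points of Eed, Mtf2 and Jarid2 reach below −2.

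The 14 detained introns had a median log2 ratio of observed to expected reads of 1.39 in KH-CB19 and 1.32 in DMSO at 0 h, against 1.81 and 1.83 over detained introns of all genes. Above expectation past the threshold were 13 of them in KH-CB19 and all 14 in DMSO per the authors' deposited table. The class may rest on these same ratios, as its making is likewise unstated. The exception was intron 10 of Rbbp4, with 39 observed and 27 expected reads in KH-CB19 (adjusted p = 0.325) and 74 observed and 37 expected reads in DMSO (adjusted p = 0.00794) by the authors' deposited table. The other introns of these genes had a median log2 ratio of −0.55 in KH-CB19 (46 introns) and −0.65 in DMSO (55 introns), against 0.34 and 0.30 over introns of all genes that were not classed as detained.

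Among the core genes of PRC2, Eed held the lowest ratio in both groups and also had introns above expectation. Its intron 14 (chr7:97104924-97110765), after codon 322 in Eed-201, had 313.5 observed and 131.5 expected reads in KH-CB19 and 451.5 observed and 186.5 expected in DMSO at 0 h per the authors' deposited table. Its intron 3 had 13.5 observed and 116 expected reads in KH-CB19 and 21.5 observed and 164 expected reads in DMSO in the same table. Both introns are several kilobases long (5842 and 4573 bp), and their log2 ratios by the authors' deposited table were 1.25 and −3.10 in KH-CB19 and 1.28 and −2.93 in DMSO. Intron 6 of Eed lay nearer to intron 14, with log2 ratios of 1.04 in KH-CB19 and 0.96 in DMSO per the authors' deposited table. Introns of 1 gene thus differed by more than 4 units on the log2 scale, in the same order in both groups.

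In Ezh2, 0 introns passed below expectation in KH-CB19 and 0 in DMSO at 0 h per the authors' deposited table. Its detained introns 17 and 19, within codon 553 and after codon 612 in Ezh2-201, had log2 ratios of 1.62 and 1.78 in KH-CB19 and 1.83 and 1.64 in DMSO per the authors' deposited table. Intron 16 of Ezh2, next to intron 17, was not classed as detained but held 20 observed and 7 expected reads in KH-CB19 (adjusted p = 0.0493) and 19 observed and 9.5 expected reads in DMSO (adjusted p = 0.193) per the authors' deposited table. The lowest ratio belonged to intron 9, with −1.12 in KH-CB19 and −0.94 in DMSO on the log2 scale by the authors' deposited table, and it did not pass in either group.

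Suz12 had 1 detained intron and Rbbp4 had 2. Intron 11 of Suz12 had 59.5 observed and 29.5 expected reads in KH-CB19 and 77.5 observed and 35 expected in DMSO at 0 h per the authors' deposited table. GENCODE M21 places a long non-coding RNA gene, Gm26563, on the opposite strand over this intron and over introns 9, 10 and 14 of Suz12, and no source used here says whether the authors' counting used strand. Opposite-strand genes of the same kind also overlap intron 9 of Ezh2 (Gm26625) and introns 11 and 14 of Rbbp4 (Gm26722). A small nucleolar RNA gene (Gm22213) lies on the opposite strand over intron 7 of Jarid2. Gm45120 lies on the same strand over intron 11 of Eed. Intron 7 of Suz12 had 51 observed and 29 expected reads in KH-CB19 (adjusted p = 0.0763) and 62 observed and 35 expected reads in DMSO (adjusted p = 0.0436), which made it the only member above expectation in DMSO that was not classed as detained, by the authors' deposited table. The lowest ratio of Suz12 was that of intron 10, with log2 ratios of −1.11 in KH-CB19 and −1.32 in DMSO per the authors' deposited table. Intron 4 of Rbbp4 had 128 observed and 48 expected reads in KH-CB19 and 159.5 observed and 65.5 expected reads in DMSO by the authors' deposited table, while intron 14 of Rbbp4 had 16 observed and 54.5 expected reads in KH-CB19 and 24 observed and 74.5 expected reads in DMSO.

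Mtf2 and Jarid2, the accessory genes of PRC2, had the most introns below expectation. In Mtf2, 5 of 9 introns were below in KH-CB19 and 6 of 11 in DMSO, and in Jarid2, 6 of 11 were below in KH-CB19 and 7 of 14 in DMSO per the authors' deposited table. The detained introns 8, 9 and 22 of Mtf2 had log2 ratios of 1.30, 1.46 and 1.14 in KH-CB19 and 1.58, 1.51 and 0.98 in DMSO by the authors' deposited table. Intron 18 of Mtf2 had the lowest ratio of all members in both groups, with 10.5 observed and 105.5 expected reads in KH-CB19 and 17 observed and 145.5 expected reads in DMSO by the authors' deposited table. Intron 2 of Jarid2 had the highest, with 354.5 observed and 40.5 expected reads in KH-CB19 (log2 ratio 3.13, adjusted p = 1.16e-16) and 570 observed and 54.5 expected reads in DMSO (log2 ratio 3.39, adjusted p = 8.54e-49) per the authors' deposited table. Intron 23 of Jarid2, the other detained one, had log2 ratios of 1.51 in KH-CB19 and 1.36 in DMSO by the authors' deposited table. The lowest of Jarid2 was intron 10, with log2 ratios of −2.74 in KH-CB19 and −2.60 in DMSO per the authors' deposited table. Intron 6 of Jarid2, at 91463 bp the longest member, was above expectation in KH-CB19 (504.5 observed and 295.5 expected reads, adjusted p = 0.000843) and did not pass in DMSO (630.5 and 398, adjusted p = 0.13) per the authors' deposited table, and it was not classed as detained. Whether the ratios of that intron differ between the groups was not tested.

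Of the PRC1 genes, Phc1 had introns above and below expectation, while Rnf2 and Ring1 had none past the threshold. Intron 20 of Phc1, 247 bp long, had 147 observed and 26.5 expected reads in KH-CB19 (log2 ratio 2.47) and 176 observed and 33 expected reads in DMSO (log2 ratio 2.42) by the authors' deposited table. Per kilobase of intron this was 595 observed reads in KH-CB19 and 713 in DMSO, the highest density among the detained members. Intron 2 of Phc1 had log2 ratios of 1.36 in KH-CB19 and 1.28 in DMSO, and intron 11, the lowest of the gene, had −1.42 in KH-CB19 and −0.84 in DMSO per the authors' deposited table. For Rnf2 the log2 ratios of its 3 introns ran from −0.02 (intron 2) to 0.92 (intron 7) in KH-CB19 and from 0.13 to 0.73, for the same introns, in DMSO, and none passed by the authors' deposited table. For Ring1, intron 2 had 10.5 observed and 11.5 expected reads in KH-CB19 and 14 observed and 15.5 expected in DMSO, and intron 5 had 11 observed and 8.5 expected reads in DMSO and no KH-CB19 value per the authors' deposited table. The GENCODE transcripts Ring1-201 and Rnf2-201 have 6 introns each, so most introns of Ring1 are not among the members.

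The share of a gene's listed intron reads that fell in its detained introns varied widely. Detained introns held 77.5% of the observed intron reads of Mtf2 in KH-CB19 and 76.5% in DMSO at 0 h, in 41.8% and 39.6% of the listed intron length. For Rbbp4 they held 78.2% in KH-CB19 and 80.2% in DMSO, and for Eed 70.2% in KH-CB19 and 69.7% in DMSO. For Ezh2 they held 54.4% in KH-CB19 and 51.7% in DMSO, and for Phc1 53.0% in KH-CB19 and 50.6% in DMSO. For Jarid2 they held 39.9% in KH-CB19 and 43.7% in DMSO, in 2.05% and 2.00% of the length. For Suz12 they held 19.3% in KH-CB19 and 20.8% in DMSO. The detained members were 247 to 7370 bp long with a median of 2217 bp, and the other members 159 to 91463 bp with a median of 1766 bp. Over all genes the order was the other way, with medians of 1562 bp for detained introns and 2044 bp for the others. The 6 members longer than 10000 bp, in Jarid2 and Ezh2, were not classed as detained. Over all genes 1856 introns were that long, and the share of them classed as detained was not computed. The longest detained intron of any gene had 20257 bp and the longest other intron 330419 bp.

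The second question was how the detained introns differed after 2 h of Clk inhibition. Introns of Phc1, Mtf2 and Eed rose and an intron of Rbbp4 fell, while those of Ezh2, Suz12 and Jarid2 did not pass. By the authors' deposited table, 4 of the 14 members rose at adjusted p below 0.05 and 1 fell, where 5.47% of all detained introns rose and 4.17% fell. Counted either way, 5 of 14 members changed, against 9.64% of all detained introns. By gene, 4 of 7 with a detained intron had a changed one, against 12.4% of all such genes. These 7 genes held 14 detained introns, while all 2427 such genes held 3454. A member gene thus had more introns that could pass, and the gene shares do not compare like with like. Deeply read introns pass more often, and the members were read deeply. Their median was 180 normalised reads in KH-CB19 and 130 in DMSO, against 59.1 and 57.9 over all detained introns. With a minimum of 50 reads in the mean of an intron's groups, 5 of 13 members changed, against 12.8% of all such introns. This floor does not match the other introns to the depth of the members, so the part of depth in the members' share was not tested. No test was made of the members as a list, since they were chosen with earlier results of these data known. The median log2 ratio of KH-CB19 to DMSO over the 14 was −0.10, against −0.0016 over all 3454 detained introns, with 6 members above 0 and 8 below. The SD across introns was 0.84 for the members and 0.60 over all.

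**Figure D2:**
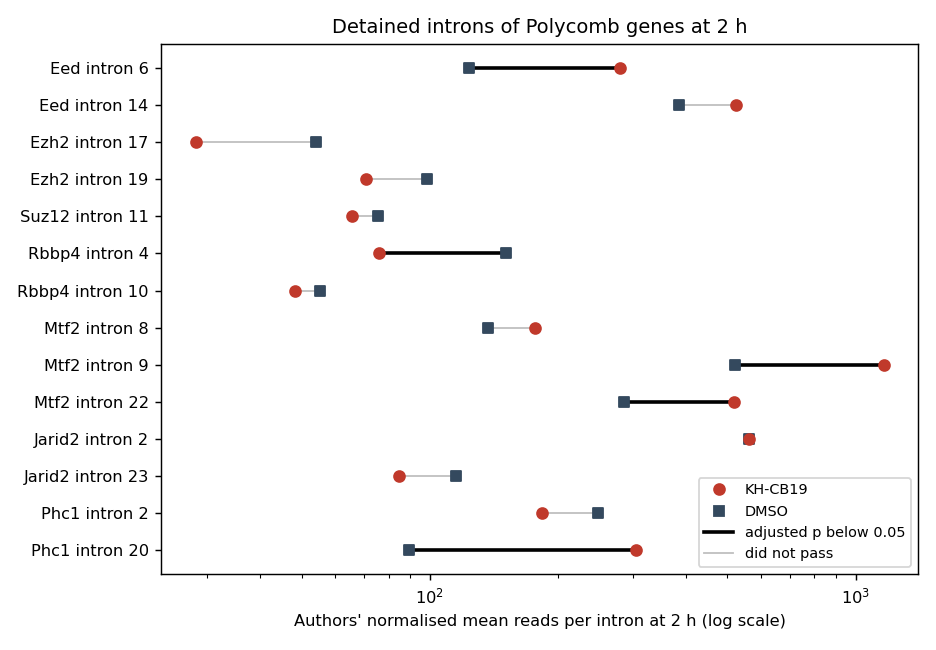
The authors' normalised mean reads per intron at 2 h (log axis) for the 14 detained introns of Polycomb genes, in KH-CB19 (circles) and DMSO (squares), each the mean of 2 libraries. Black lines join the values of the 5 introns at adjusted p below 0.05. Intron 9 of Mtf2 had the highest level, 1167 reads in KH-CB19, and intron 20 of Phc1 the widest gap, 306 reads in KH-CB19 and 89.4 reads in DMSO.

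Intron 20 of Phc1 had 306 normalised reads in KH-CB19 and 89.4 normalised reads in DMSO at 2 h by the authors' deposited table. The authors' DESeq comparison gave a 3.42-fold rise (log2 ratio 1.77, adjusted p = 1.28e-11). Among the 3454 detained introns it ranked 16 from the top by ratio and 9 by the size of its p. Per kilobase the level was 1237 normalised reads in KH-CB19 and 362 in DMSO. Intron 2 of the same gene had 183 normalised reads in KH-CB19 and 249 in DMSO per the authors' deposited table (log2 ratio −0.44, adjusted p = 0.221). The log2 ratios of the 2 introns had opposite signs, and whether they differ was not tested.

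Mtf2 was the only member gene with 2 introns that rose. Of the 751 genes with at least 2 detained introns, 17 (2.26%) had at least 2 that rose. Intron 9 of Mtf2 had 1167 normalised reads in KH-CB19 and 522 in DMSO by the authors' deposited table, a 2.24-fold rise (log2 ratio 1.16, adjusted p = 2.57e-08). Intron 22 of Mtf2 had 519 normalised reads in KH-CB19 and 285 in DMSO per the authors' deposited table, a 1.82-fold rise (log2 ratio 0.86, adjusted p = 0.0004). Intron 8 of Mtf2, just upstream of intron 9, had 177 normalised reads in KH-CB19 and 137 in DMSO per the authors' deposited table and did not pass (log2 ratio 0.37, adjusted p = 0.394). All 3 had positive log2 ratios, and their summed level was 1862 normalised reads in KH-CB19 and 944 in DMSO.

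Intron 6 of Eed had 279 normalised reads in KH-CB19 and 123 in DMSO per the authors' deposited table, a 2.26-fold rise (log2 ratio 1.18, adjusted p = 1.18e-05). Intron 14 of Eed, with the larger level, had 523 normalised reads in KH-CB19 and 385 in DMSO and did not pass (log2 ratio 0.44, adjusted p = 0.134) by the authors' deposited table. Both log2 ratios of Eed were positive. Those of Ezh2, the enzyme that Eed stimulates, were both negative and did not pass. Intron 17 of Ezh2 had 28.2 normalised reads in KH-CB19 and 53.9 in DMSO (log2 ratio −0.94, adjusted p = 0.182), and intron 19 had 71.0 in KH-CB19 and 98.5 in DMSO (log2 ratio −0.47, adjusted p = 0.346) per the authors' deposited table. Intron 11 of Suz12 had 65.7 normalised reads in KH-CB19 and 75.6 in DMSO (log2 ratio −0.20, adjusted p = 0.799) by the authors' deposited table.

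Intron 4 of Rbbp4 was the member that fell. It had 76.0 normalised reads in KH-CB19 and 151 in DMSO at 2 h per the authors' deposited table, 1.99-fold lower in KH-CB19 (log2 ratio −0.99, adjusted p = 0.00365), rank 161 from the bottom by ratio. In GENCODE M21 an exon of Rbbp4-204 covers the first 3764 of the 5718 bases of this intron. The part of that exon in these reads was not tested. Intron 10 of Rbbp4 had 48.3 normalised reads in KH-CB19 and 55.1 in DMSO (log2 ratio −0.19, adjusted p = 0.844) by the authors' deposited table. In Jarid2, intron 2 had 561 normalised reads in KH-CB19 and 563 in DMSO (log2 ratio −0.0048, adjusted p = 1), and intron 23 had 84.8 in KH-CB19 and 115 in DMSO (log2 ratio −0.44, adjusted p = 0.374) per the authors' deposited table. Intron 2 of Jarid2 thus had the highest excess at 0 h among the members and the ratio nearest to 1 at 2 h. By length, GENCODE M21 has this intron in 1 transcript only (Jarid2-204), and an exon of Jarid2-206 covers at least its last 30 bases. The part of exons of other transcripts in its reads was not tested. No exon value and no 2 h value of a further intron is given for these 7 genes, so a change in the amount of transcript and a change in splicing cannot be told apart.

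**Figure D3:**
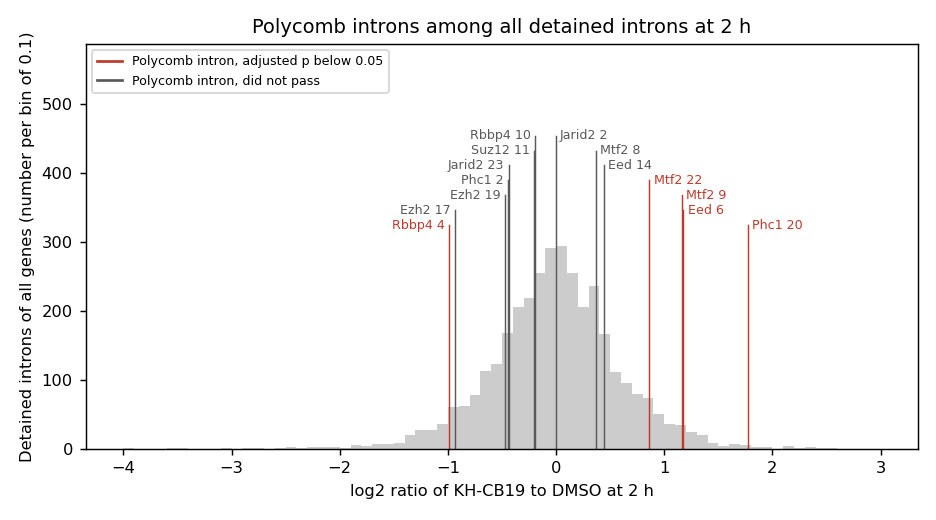
Distribution of log2 ratios, KH-CB19 over DMSO, at 2 h over all 3454 detained introns (grey bars, number of introns per bin), with the 14 introns of Polycomb genes as labelled lines. The 4 introns that rose have ratios between 0.86 and 1.77, the 1 that fell has −0.99, and the other 9 lie between −0.94 and 0.44.

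By role, the 7 detained introns of the PRC2 core genes had a median log2 ratio of −0.20 at 2 h, with 1 rise and 1 fall by the authors' deposited table. The 5 of the accessory genes had a median of 0.37, with 2 rises and 0 falls, and the 2 of PRC1, both in Phc1, had 1 rise and 0 falls. These groups hold too few introns to be set against each other, and no test of a difference between them was made. With unadjusted p-values bounded from the adjusted ones (taken as Benjamini-Hochberg values of DESeq, the tool the notes name), at least 8 of the 14 members and at least 724 of all 3454 detained introns lay below 0.05.

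The 0 h groups, harvested as soon as the agents were added, show how far the same introns differed there. For the 14 detained introns the log2 ratio of observed to expected reads in KH-CB19 minus that in DMSO ran from −0.47 (intron 10 of Rbbp4) to 0.17 (intron 22 of Mtf2), with a median of 0.02. Over all detained introns the median was −0.01 and the SD across introns 0.23. For the 4 introns that rose at 2 h, the 0 h difference was 0.06 (intron 20 of Phc1), −0.04 (intron 9 of Mtf2), 0.17 (intron 22 of Mtf2) and 0.08 (intron 6 of Eed). For intron 4 of Rbbp4, which fell at 2 h, it was 0.13. These 5 values lay within that SD of 0, and their log2 ratios at 2 h were between 0.86 and 1.77 for the rises and −0.99 for the fall. The 0 h means are unscaled and set against expected reads while the 2 h means are normalised, so both differences are given side by side and were not tested against each other.

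**Figure D4:**
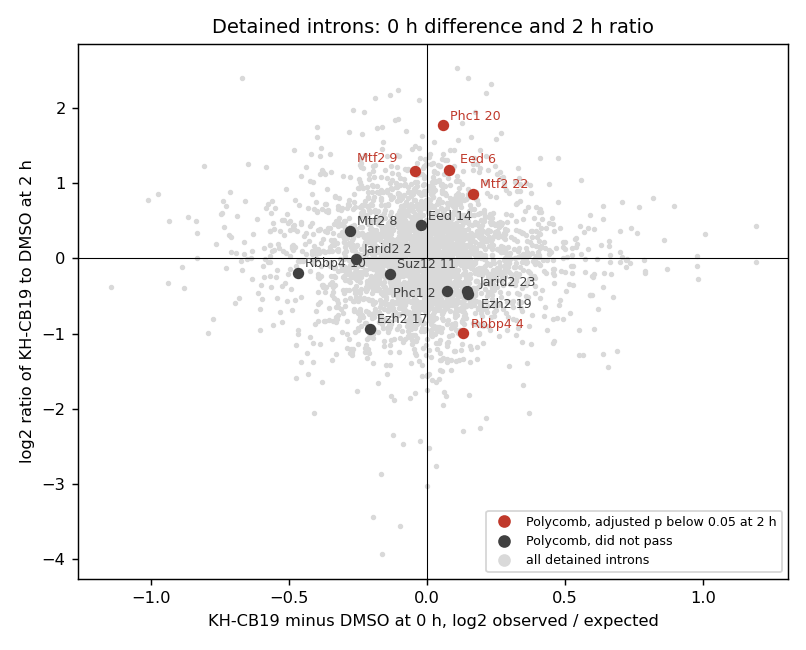
For each detained intron, the log2 ratio of observed to expected reads in KH-CB19 minus DMSO at 0 h (horizontal axis) and the 2 h log2 ratio, KH-CB19 over DMSO, (vertical axis). Introns of Polycomb genes are labelled and those at adjusted p below 0.05 at 2 h are red. The red points lie between −0.04 and 0.17 on the horizontal axis.

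The expected reads, summed over the introns of a gene that had a value in both groups, were lower in KH-CB19 than in DMSO at 0 h for all 9 genes. The ratio of summed expected reads, KH-CB19 over DMSO, was 0.706 for Eed, 0.738 for Ezh2, 0.833 for Suz12, 0.734 for Rbbp4, 0.723 for Mtf2, 0.743 for Jarid2, 0.810 for Phc1, 0.680 for Rnf2 and 0.742 for Ring1. Over all genes the median was 0.797 and the quartiles were 0.727 and 0.879. As these means are unscaled, depth enters the ratio, and 7 of the 9 genes lay below the median of all genes.

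The detained introns of other genes most like the 5 changed members were sought by the Euclidean distance over 3 log2 ratios (observed to expected in KH-CB19 and in DMSO at 0 h, and KH-CB19 to DMSO at 2 h), under the same minimum of 50 mean reads. Nearest to intron 6 of Eed were intron 6 of Tkt (distance 0.0722), intron 12 of Atp5c1 (0.115) and intron 21 of Srrm2 (0.152). Nearest to intron 9 of Mtf2 were intron 28 of 1500010J02Rik (0.0587), intron 14 of Dnajc7 (0.0811) and intron 13 of Sap30bp (0.105). For intron 22 of Mtf2 they were intron 8 of Adss (0.125), intron 12 of Alg13 (0.152) and intron 14 of Rbm39 (0.168). Intron 4 of Rbbp4 had intron 5 of Necap2 (0.151), intron 8 of Scaf4 (0.152) and intron 2 of 1500001M20Rik (0.174) as its nearest. Intron 20 of Phc1 stood farther from its neighbours, intron 28 of Dhx38 (0.464), intron 36 of Tmem131 (0.484) and intron 14 of Slc38a1 (0.528). By the authors' DESeq comparison at 2 h, the introns of Adss (adjusted p = 0.0524), Rbm39 (0.382) and Necap2 (0.062) did not pass. The other neighbours named passed.

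Other genes in or linked to the Polycomb system were followed through a list of 43 genes. Of these, 27 had introns in the authors' deposited table, Wdr5 and Kdm6a among them. They held 114 introns, 16 of them (14.0%) detained, in 14 genes. By the authors' DESeq comparison 0 of the 16 rose and 0 fell at 2 h, where 5.47% of all detained introns rose and 4.17% fell. At least 2 of the 16 lay below 0.05 without adjustment, against at least 724 of all 3454. In the authors' deposited table the smallest adjusted p was that of intron 38 of Usp7, a deubiquitinase found with PRC1, with 89.3 normalised reads in KH-CB19 and 50.5 in DMSO (log2 ratio 0.82, adjusted p = 0.062), and the next that of intron 11 of Pcgf2, a PRC1 subunit, with 65.1 in KH-CB19 and 29.7 in DMSO (log2 ratio 1.13, adjusted p = 0.195). After them came intron 15 of Ezh1, the other methyltransferase of PRC2, with 49.9 normalised reads in KH-CB19 and 76.1 in DMSO (log2 ratio −0.61, adjusted p = 0.248), and intron 10 of Aebp2, a PRC2 accessory gene, with 196 in KH-CB19 and 260 in DMSO (log2 ratio −0.41, adjusted p = 0.275) per the authors' deposited table. The median log2 ratio of the 16 was 0.20. At 0 h the 114 introns had median log2 ratios of observed to expected reads of 0.45 in KH-CB19 and 0.50 in DMSO, against 0.60 and 0.53 over all introns. Above expectation were 30 of 95 of them in KH-CB19 and 30 of 111 in DMSO by the authors' deposited table, where 27.6% and 28.2% of all introns were. Below expectation were 13 of 95 in KH-CB19 and 19 of 111 in DMSO by the authors' deposited table, where 8.93% and 10.9% of all introns were.

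For the series as a whole, observed 0 h means were given for 18740 introns in KH-CB19 and 21568 in DMSO, and the normalised 2 h means of detained introns summed to 392295 in KH-CB19 and 369104 in DMSO. The members' observed 0 h means summed to 4402 reads in KH-CB19 and 5976 in DMSO. The depth of a whole library cannot be read from such sums. Of 17 genes that mark embryonic stem cells, 15 had introns in the table, Pou5f1, Nanog and Esrrb among them, and of 12 markers of germ layers and trophoblast 0 did. Of 8 fibroblast markers only Fn1 did. RNA integrity numbers were 9.1 and 8.8 in the KH-CB19 libraries at 2 h and 9.3 and 9.3 in the DMSO libraries at 2 h, and their part in the 2 h ratios was not tested.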

How the data were processed

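Polyadenylated RNA was made into 8 stranded, paired-end libraries, 2 per group, per the labels' protocols. The submitters' processing notes name the build mm9 and, without roles, DESeq, Cufflinks 2.1.1, TopHat2 2.0.9 with Bowtie 1.0.0, bedtools 2.17.0 and SAMtools 0.1.19. Per the file headers, the authors gave observed and expected mean counts per intron at 0 h, and all 40308 observed means were multiples of 0.5. The authors deposited their normalised 2 h means as a signal that is not whole, for detained introns only. Log2 ratios and adjusted p-values are the authors' own, per the file headers. Sites the authors marked as low in coverage have no value.

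Since the table holds group means, no count model was fitted. Members were selected by gene name, and counts, medians, reads per kilobase and distances were computed with Python 3.11.15 and pandas 2.3.3. Starts, which the table counts from 0, are given from 1. Introns were matched to GENCODE M21 (GRCm38) by gene and length alone, and sequences were read from its transcripts; no coordinate was carried between builds. All 10 genes are described, with every detained intron named and, at 0 h, the highest and lowest ratio of each gene. Of listed genes, introns past 0.05 were named, or else the 4 with the smallest adjusted p. The members and lists were chosen with earlier results of these data known.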

Additional observations from a re-analysis of the deposited data

How the results depend on the processing

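No paired analysis was possible because the table holds 1 mean per group, and for the same reason no library could be left out in turn. Over 10 results and 89 alternatives, 68 kept their value (a count within 1.5 times, a median of like sign within 0.1 on the log2 scale, a share within its binomial interval). The 68 include settings whose outcome was fixed. Leaving out a gene with no changed intron cannot alter the counts at 2 h, and all 5 changed introns had at least 50 mean reads. The 4 rises at 2 h became 2 without Mtf2, and the 1 fall became 0 without Rbbp4; thresholds of 0.01 and 0.1 and the minimum of 50 reads changed neither count. Counted by genes at 0 h, 7 were above expectation in KH-CB19 and 7 in DMSO, and 5 were below in KH-CB19 and 6 in DMSO. The median log2 ratio at 2 h was −0.20 as a median over genes and without Mtf2, and above 0 without Ezh2 (0.18), Jarid2 (0.089) or Rbbp4 (0.18), so its sign rests on single genes. The median ratio of observed to expected reads in DMSO was −0.069 over genes, −0.43 without Ezh2, −0.36 without Suz12 or Ring1, −0.035 without Jarid2 and −0.39 without Rnf2. With at least 50 reads this median was 0.81 in KH-CB19 and 0.96 in DMSO, a filter that by construction keeps introns with high observed reads. The detained share was 52% with that filter, and the same share over all introns was not computed. Counted by genes it was 77.8%, where 34.6% of all genes had a detained intron. The members were 69 introns of 9 genes, against 22228 introns of 7016 genes in all. A member gene thus had more listed introns that could be detained, and the gene shares do not compare like with like. Group means of 2 libraries give no measure of spread.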

Other observations

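Trithorax and COMPASS genes, whose products methylate histone H3 at active genes and act opposite to Polycomb, were followed through a list of 16 genes, 13 of them with introns in the authors' deposited table. They had 56 introns, 10 of them (17.9%) detained, in 6 genes. Of these 10, 0 rose and 1 fell at adjusted p below 0.05 by the authors' DESeq comparison, where 5.47% of all detained introns rose and 4.17% fell, and below an unadjusted 0.05 at least 1 fell. The fall was in intron 29 of Hcfc1, a host cell factor that binds these methyltransferases, and the authors' deposited table gave it 22.6 normalised reads in KH-CB19 and 60.1 in DMSO at 2 h (log2 ratio −1.41, adjusted p = 0.00518). The median log2 ratio of the 10 introns was −0.25. At 0 h, 13 of 49 of their introns were above expectation in KH-CB19 and 20 of 55 in DMSO by the authors' deposited table, where 27.6% and 28.2% of all introns were. Below expectation were 4 of 49 in KH-CB19 and 5 of 55 in DMSO by the authors' deposited table, where 8.93% and 10.9% of all introns were. Of 12 germ layer and trophoblast markers and 8 fibroblast markers, Fn1 was the only one with introns listed, with 2562 observed reads in KH-CB19 and 3266 in DMSO at 0 h.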
